A study of Mus musculus with 24 samples.

Results

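The cytosolic ribosomal protein genes were taken by symbol from the table of hippocampal genes: every Rpl or Rps gene with a protein number, together with Rplp0, Rplp1, Rplp2 and Rpsa, and without Rps6k kinases, Rps19bp1, Rpl7l1 and annotated pseudogenes. The rule gave 84 of 21793 genes, of which 43 encode large subunit proteins, 31 small subunit proteins and 3 the P-stalk, and 7 are paralogs or retrogenes. A floor of 10 normalised reads in at least 3 libraries kept 80 of the 84 and 14162 of all genes. The 4 under the floor were the paralogs Rpl3l, Rpl39l and Rps27rt, with means of 4.98, 2.08 and 4.20 normalised reads, and Rpl10l. Rpl10l, a testis retrogene, had 0 of 345711328 reads over all libraries, which allows a share of up to 8.68e-07% (3 counts; counting error only).

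Each library was polyA RNA from the hippocampus of 1 female mouse that was 3 months old when it went on its diet and stayed on it for 6 months. The 12 mice labelled 3xTg-AD (3xTg) belong to a line with transgenes for human APP and MAPT, both driven in neurons by a Thy1 cassette. The 12 mice labelled B6129SF2/J (WT) are hybrids of the same mixed C57BL/6 and 129 origin. The lines are kept as separate strains, and transgenes and strain cannot be told apart. The control diet (3 3xTg and 4 WT mice) held 70% carbohydrate, 20% long-chain triglycerides and 10% protein at 4.1 kcal/g. The MCT diet (4 and 4 mice) held 70% carbohydrate, 10% long-chain and 10% medium-chain triglycerides and 10% protein at 4.1 kcal/g. The ketogenic diet (5 and 4 mice) held 90% long-chain triglycerides and 10% protein, without carbohydrate, at 6.7 kcal/g.

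A cytosolic ribosome pairs a small subunit, which reads the messenger RNA, with a large subunit, which joins amino acids. Each carries 1 copy of most ribosomal proteins, and the genes for these proteins are usually expressed in step. Their messenger RNAs start with a run of pyrimidines, the terminal oligopyrimidine tract, through which mTOR signalling and LARP1 control their translation. In neurons they are among the abundant transcripts, and some are carried into dendrites and axons. The mouse genome holds many processed pseudogenes of these genes, which are intronless copies of the messenger RNA.

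Libraries held 10078435 to 25810846 reads, except 3xTg ketogenic replicate 2 with 2653427. Markers of excitatory neurons, granule cells of the dentate gyrus, interneurons, astrocytes, oligodendrocytes and microglia were present. In these 6 lists every marker passed the floor of 10 normalised reads in at least 3 libraries. The choroid plexus list (7 of 10 genes above the floor) summed to between 2624 and 4135 normalised reads, but reached 23627 in the highest WT control and 11168 in the highest WT ketogenic library. Thy1, the gene whose cassette drives the transgenes, was high in libraries labelled 3xTg and low in those labelled WT, and went against the label in 3. It was 9189 normalised reads in 3xTg control replicate 3, 8112 in 3xTg ketogenic replicate 1 and 23048 in WT MCT replicate 2, against 20385 to 29277 in the other 3xTg and 6952 to 8137 in the other WT libraries. These are named below as the library labelled so, and genotype calls of ribosomal protein genes and lists are given with all 24 libraries and with the other 21; neighbouring genes are given with 24 only. The 84 genes together took 0.330% to 0.442% of a library's reads. In bulk tissue, fewer cells of a type and less RNA per cell cannot be told apart.

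Most of these genes have near-identical copies elsewhere, and this bears on every level below. Of the windows of 50 bases along each gene's coding sequence (mouse GENCODE M21, build GRCm38), a median of 8.57% occurred in no transcript of another gene. In 31 of the 84 genes no window was unique, and in 70 fewer than 50% were; only 5 genes had more than 90% unique windows. The coding sequence of Rpl34 differs from the processed pseudogene Rpl34-ps1 (chr6:71124610-71124963) at 2 of 351 bases, and 27.8% of its windows were unique. Rpl3 differs from Rpl3-ps1 (chrX:13202571-13203780) at 2 of 1209 bases, and 4.31% of its windows were unique. These pairs are shown for the 2 members with the largest rise in 3xTg (below); in each pair of 60 bases the capital marks the only base that differs.
Rpl34: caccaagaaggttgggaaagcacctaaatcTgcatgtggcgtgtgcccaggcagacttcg
Rpl34-ps1: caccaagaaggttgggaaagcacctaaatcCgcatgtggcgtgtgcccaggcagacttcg
Rpl3: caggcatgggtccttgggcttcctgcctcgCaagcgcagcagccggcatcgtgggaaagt
Rpl3-ps1: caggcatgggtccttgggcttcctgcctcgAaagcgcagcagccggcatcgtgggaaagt
The pseudogenes themselves were not analysed here. The sources used here do not give how reads that fit several places were counted. The counts of these genes are therefore uncertain as measures of the gene itself.

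Per length of merged exons, the levels spanned more than 3 orders of magnitude. The highest were Rps15, a small subunit protein, at 4515 normalised reads per kb, Rpl4, which lines the exit tunnel for the growing protein, at 3308, and the P-stalk gene Rplp1 at 2845. The lowest above 0 were the paralogs Rpl3l (3.03 per kb) and Rpl39l (2.50 per kb). Across the 80 tested genes, the level per kb and the share of unique coding windows had a Spearman correlation of 0.66. This is a description over genes of the same 24 libraries, and both quantities depend on the gene's own sequence. Merged exons take in every annotated transcript of a gene, so the level per kb also depends on the annotation. Rps15a had 6270 bases of merged exons for 390 coding bases, and Rps15 had 630 for 435. The same limit holds for the paralogs below.

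**Figure D1:**
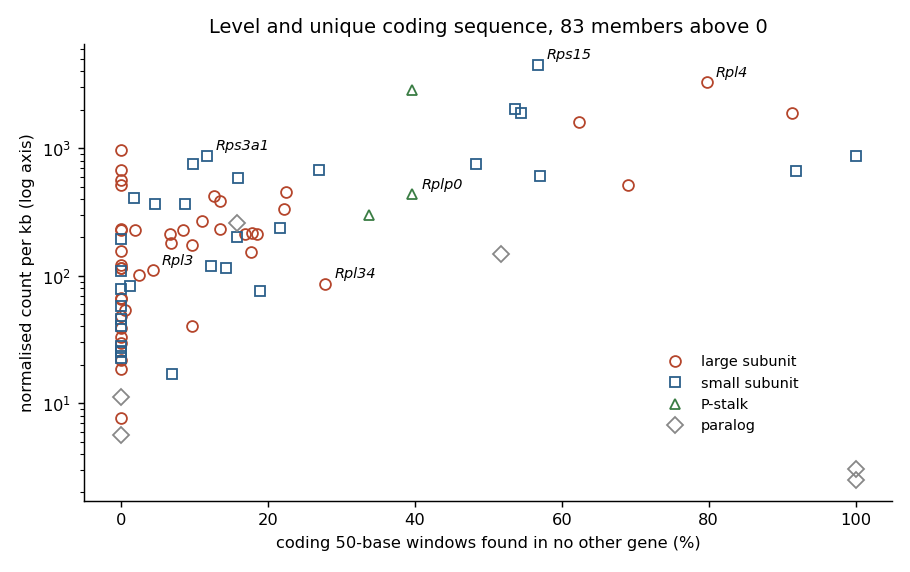
Each point is 1 of the 83 genes above 0: horizontally the percentage of its 50-base coding windows found in no other gene, vertically its mean normalised read count per kb of exon on a log axis, with the symbol showing the class. Genes with no unique window fill the left edge, Rpl4 and Rps15 stand high to the right of it, and the paralogs Rpl3l and Rpl39l lie at 100% and near the bottom.

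The paralogs and their parent genes lay at different levels. Rpl22l1, a paralog of Rpl22 that can take its place in the ribosome, had 261 normalised reads per kb against 512 for Rpl22. Rps27l, a target of p53, had 148 per kb against 25.1 for Rps27, whose coding sequence has no unique window. Rpl36al had 5.64 per kb against 66.7 for Rpl36a, and neither has a unique window. Rpl3l, the form of striated muscle, had 3.03 per kb against 111 for Rpl3, and Rpl39l, a testis form, 2.50 per kb against 231 for Rpl39. None of the 3 paralogs above the floor was called between genotypes averaged over diets: the log2 differences were -0.01 for Rpl22l1, 0.02 for Rps27l and 0.02 for Rpl36al. None was called in 21 libraries either.

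The first question was whether ribosomal protein genes differed between 3xTg and WT mice. Averaged over the 3 diets, 5 of 80 were called with limma at an adjusted p under 0.05 over all 14162 genes, 4 higher and 1 lower in 3xTg, where 8.1% of all tested genes were called (3.71% higher and 4.38% lower). The 4 higher were Rpl34, Rpl3, Rpl29 and Rpl15, all among the 43 large subunit genes, and the 1 lower was Rplp0, the core of the P-stalk. None of the 31 small subunit genes was called, and a difference between the subunits was not tested. The median log2 differences were alike, -0.013 for large and -0.012 for small subunit genes. The median log2 difference over the 80 genes was -0.01, beside -0.00 over all genes, and 32 of 80 lay above 0 (40%, beside 49.6% of all genes). Without the 3 libraries that go against their label, 7 of 80 were called, 5 higher and 2 lower, where 13.2% of all 14126 genes were called (6.31% higher and 6.84% lower); Rpl30 joined the higher and Rpl21 the lower. Leaving out 3xTg control replicate 1 or replicate 2 left 2 called of the 80. The 75 other genes differed by between -0.57 (Rps10) and 0.95 (Rps3a1) in all 24 libraries.

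Markers of several cell types were called in the same 24-library comparison, where 8.1% of all genes were called. Of the 9 granule cell markers 6 were lower in 3xTg, of the 8 endothelial and mural markers 4, of the 6 excitatory neuron markers 1 and of the 7 striatum markers 1. Of the 9 oligodendrocyte, 9 microglia and 9 interneuron markers 3 each were higher, and of the 8 astrocyte markers 2; none of the 7 choroid plexus or 5 red blood cell markers was called. In 21 libraries 13.2% of all genes were called (6.31% higher and 6.84% lower). The lower markers there were 6 of granule cells, 4 endothelial and mural, 2 of excitatory neurons, 1 of interneurons and 1 of the striatum. The higher ones in 21 libraries were 5 of microglia, 3 of interneurons, 2 of oligodendrocytes, 2 of astrocytes and 1 of red blood cells. The summed granule cell markers were 10246 to 12049 normalised reads in 3xTg and 10978 to 15039 in WT libraries, the oligodendrocyte markers 68057 to 91386 and 55288 to 90902, and the microglia markers 5610.3 to 6411 and 4836 to 6438. No marker of these lists was at 0 throughout the 24 libraries, and the part of the markers in the calls of ribosomal protein genes was not tested.

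**Figure D2:**
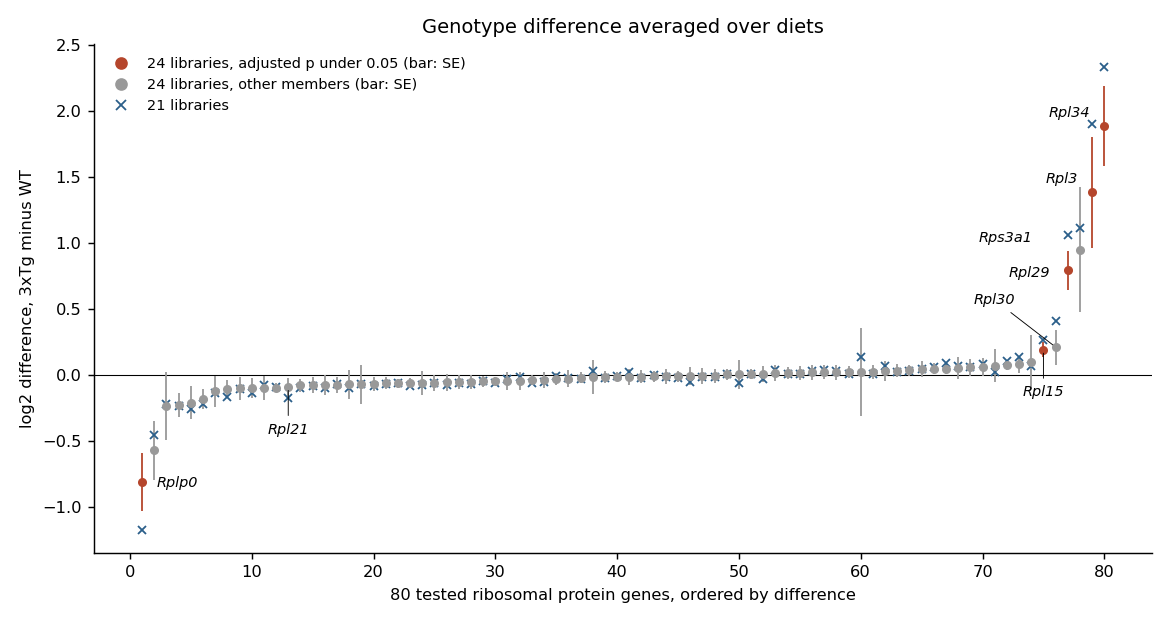
Circles give the log2 difference between 3xTg and WT averaged over diets for the 80 tested ribosomal protein genes in rank order, with bars of 1 SE and red for the 5 called genes; crosses give the same difference in 21 libraries. Most genes lie close to 0, while Rplp0 lies at the low end and Rpl29, Rpl3 and Rpl34 at the high end, farther out in 21 libraries.

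Rpl34 (chr3:130726831-130730398, minus strand, GRCm38), a large subunit protein, had the largest difference of the 80. The 3xTg control libraries had 483, 377 and 204 normalised reads, the third of them labelled against its Thy1 level. The 3xTg ketogenic libraries had 64.6, 335, 411, 407 and 317, the first of them against its Thy1 level, and the 3xTg MCT libraries 391, 376, 392 and 384. The values of 3xTg were thus close together apart from those 2 libraries. The WT control libraries had 56.6, 68.6, 54.2 and 202, the WT ketogenic libraries 43.9, 59.0, 68.0 and 54.0, and the WT MCT libraries 222, 386, 65.2 and 71.4, where replicate 2 is the library against its label. The genotypes overlapped in 24 libraries and did not in 21, where 3xTg ran from 317 to 483 and WT from 43.9 to 222. Rpl34 was 1.89 ± 0.30 higher in 3xTg on the log2 scale (SE, limma adjusted p = 0.000554) and 2.33 ± 0.21 in 21 libraries (adjusted p = 4.85e-08).

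Rpl3 (chr15:80077791-80091868, minus strand), which reaches into the centre where peptide bonds form, showed 3 levels. The 3xTg control libraries had 614, 549 and 336 normalised reads, the 3xTg ketogenic libraries 48.2, 573, 484, 569 and 477, and the 3xTg MCT libraries 553, 522, 509 and 509. The low ones were the third control and the first ketogenic library, the same pair as for Rpl34. The WT control libraries had 63.1, 58.8, 277 and 286, the WT ketogenic libraries 284, 334, 63.1 and 296, and the WT MCT libraries 287, 593, 77.8 and 62.3. WT mice of 1 diet thus differed from each other more than 4-fold, and the WT MCT library labelled against its Thy1 level was among the highest of all. The difference was 1.38 ± 0.42 (SE, limma adjusted p = 0.0422) in 24 libraries, the weakest call of the 5: it was lost in 15 of 24 fits with 1 library left out, with an adjusted p of up to 0.0982 without 3xTg control replicate 1. It was 1.90 ± 0.33 (limma adjusted p = 0.000336) in 21, where 3xTg (477 to 614) and WT (58.8 to 334) did not overlap.

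Rplp0 (chr5:115559467-115563727, plus strand) anchors the P-stalk, the arm that recruits elongation factors, and was lower in 3xTg. The 3xTg control libraries had 451, 384 and 1106 normalised reads, the 3xTg ketogenic libraries 1217, 443, 385, 446 and 352, and the 3xTg MCT libraries 397, 377, 444 and 394. The 2 libraries against their label stood more than 2-fold above the others. The WT control libraries had 1028, 765, 1069 and 1123, the WT ketogenic libraries 1015, 1264, 484 and 1137, and the WT MCT libraries 1145, 377, 1148 and 481. WT was high except in ketogenic replicate 3 and MCT replicates 2 and 4, of which MCT replicate 2 goes against its label. The difference was -0.81 ± 0.22 (SE, limma adjusted p = 0.0234) and -1.17 ± 0.15 in 21 libraries (adjusted p = 1.41e-05), where the genotypes no longer overlapped (352 to 451 against 481 to 1264). The call was lost without 3xTg control replicate 1 (adjusted p = 0.0692 by limma) or replicate 2 (0.0563). Its stalk partners Rplp1 and Rplp2 were not called.

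Across the 80 genes, Rpl34, Rpl3 and Rplp0 were the 3 without overlap between the genotypes in 21 libraries, where 1.29% of all genes had none. In 24 libraries no ribosomal protein gene was without overlap, beside 0.0212% of all genes.

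Rpl29 (chr9:106429454-106431568, plus strand), a small basic protein at the surface of the large subunit, was 0.79 ± 0.15 higher in 3xTg (SE, limma adjusted p = 0.00229) and 1.06 ± 0.10 higher in 21 libraries (adjusted p = 1.3e-07). The 3xTg libraries ran from 133 to 336 normalised reads with a median of 274, and the WT libraries from 99.5 to 269 with a median of 127. In 21 libraries they still overlapped (177 to 336 against 99.5 to 184). Only 9.74% of its coding windows were unique, and 73.5% occurred in an annotated transcript of Uimc1.

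Rpl15 (chr14:18267823-18271391, minus strand), part of the core of the large subunit, was 0.19 ± 0.06 higher (SE, limma adjusted p = 0.0333) and 0.26 ± 0.05 higher in 21 libraries (adjusted p = 0.00138). The 3xTg libraries ran from 1179 to 1503 normalised reads with a median of 1356, and the WT libraries from 989.8 to 1491 with a median of 1156. The call was lost in 11 of 24 fits with 1 library left out, with a limma adjusted p of up to 0.0975 without 3xTg control replicate 1. None of its coding windows was unique, and all of them also occurred in Rpl15-ps3.

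Rpl30 (chr15:34440505-34443640, minus strand), a large subunit protein at the subunit interface, was called in 21 libraries alone: 0.41 ± 0.11 higher in 3xTg (SE, limma adjusted p = 0.0113), against 0.21 ± 0.13 (adjusted p = 0.339) in 24. Its 3xTg libraries in the set of 21 ran from 649.6 to 818 normalised reads and WT from 329.9 to 737. The 2 3xTg libraries against their label had 425 and 397. Rpl21, another large subunit protein, was lower in 21 libraries (-0.17 ± 0.06, limma adjusted p = 0.0459) and differed by -0.09 ± 0.07 (adjusted p = 0.47) in 24. Both were chosen after their values were seen.

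The values of Rpl34, Rpl3 and Rplp0 fell into separate ranges rather than around 2 group means, and so did those of the small subunit gene Rps3a1. A break of more than 0.5 on the log2 scale between neighbouring libraries was used to part ranges, a rule set after the values were seen. Rpl34 formed 3 ranges: 10 libraries at 43.9 to 71.4 (9 WT and the first 3xTg ketogenic), 3 at 202 to 222 and 11 at 317 to 483. The 3 in the middle were WT control replicate 4, WT MCT replicate 1 and the library labelled 3xTg control replicate 3. Rpl3 also formed 3 ranges: 6 libraries at 48.2 to 77.8, 7 at 277 to 336 and 11 at 477 to 614. The 11 highest libraries were the same for Rpl34 and Rpl3, and they were the 11 in which Thy1 was at 20385 or more: 10 labelled 3xTg and the library labelled WT MCT replicate 2. The lower ranges divided the WT mice differently: the 3 WT ketogenic replicates 1, 2 and 4 were in the lowest range for Rpl34 and in the middle one for Rpl3. Rplp0 formed 2 ranges, 13 libraries at 352 to 484 and 11 at 765 to 1264, and its low range held the 11 libraries with high Thy1 together with WT ketogenic replicate 3 and WT MCT replicate 4.

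Rps3a1 (chr3:86137940-86142702, minus strand), a small subunit protein near the path of the messenger RNA, formed 3 ranges as well and was described for this after its values were seen. WT ketogenic replicate 1 had 11.0 normalised reads, from 8 reads, while 7 libraries lay at 472 to 564 and 16 at 827 to 1202. The WT control libraries had 503, 538, 472 and 996, the WT ketogenic libraries 11.0, 1008, 1202 and 553, and the WT MCT libraries 951, 1128, 504 and 541. Among 3xTg libraries, the 1 in the middle range was the library labelled control replicate 3, at 564, and the other 11 were in the top range. The genotype difference of 0.95 ± 0.47 was not called (SE, limma adjusted p = 0.217), nor was that of 1.12 ± 0.53 in 21 libraries (adjusted p = 0.177). Only 11.7% of its coding windows were unique, and 76.7% also occurred in the pseudogene Rps3a2.

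**Figure D3:**
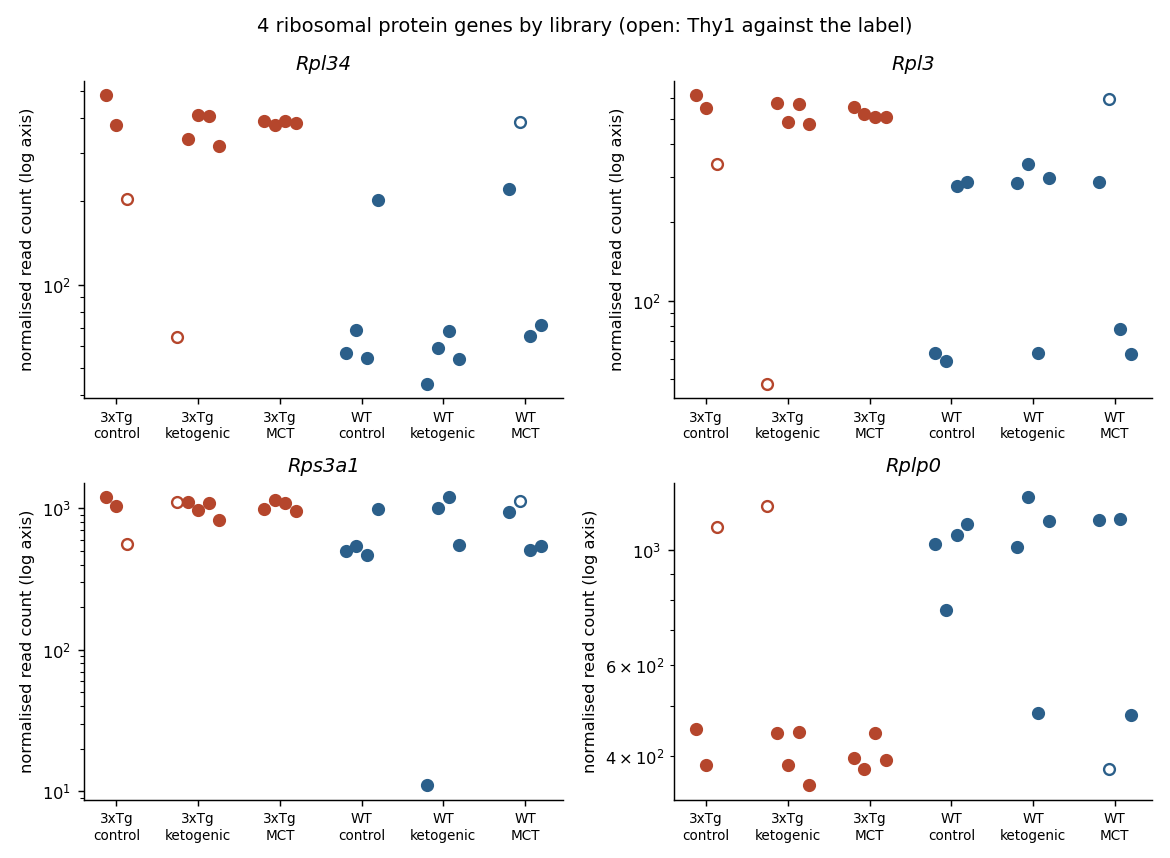
Normalised read counts of Rpl34, Rpl3, Rps3a1 and Rplp0 in each library on log axes, by genotype and diet, with 3xTg in red, WT in blue and open circles for the 3 libraries whose Thy1 goes against the label. Points stack at separate levels: 3 for Rpl34, Rpl3 and Rps3a1 and 2 for Rplp0, and for Rpl34, Rpl3 and Rplp0 each open circle lies in a range held mostly by libraries of the other genotype label.

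Few ribosomal protein genes spread so widely within a group. Of the 71 with a mean of at least 50 normalised reads, Rps3a1, Rpl3, Rpl34 and Rplp0 had a within-group SD over 0.5 on the log2 scale (5.63%), as had 97 of 11778 genes in all (0.824%). With the same mean, 5 of the 71 (7.04%) had a break over 0.5 between neighbouring libraries, beside 1.79% of all genes; the fifth was Rps12, at 59.4 normalised reads in the shallow 3xTg ketogenic replicate 2 and 93.2 to 155 elsewhere. The median within-group SD was 0.15 over the 71 genes and 0.12 over all.

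Genes next to the 5 called members and to Rps3a1 and Rpl30 were tested in the same fit, over 500 kb to either side. Beside Rpl34, 2 of 3 neighbours were called: Etnppl, a phospholyase of astrocytes, was 0.997 ± 0.20 higher in 3xTg (SE, limma adjusted p = 0.00418) and Lef1, a Wnt pathway transcription factor, was lower (-0.48 ± 0.14, adjusted p = 0.0273). Beside Rpl3, 3 of 19 were called, led by Cbx6, of a Polycomb complex (-0.16 ± 0.03, limma adjusted p = 0.00283), and beside Rplp0 3 of 19, all lower. Beside Rpl29, 2 of 23 were called, both higher: Poc1a (0.56 ± 0.15, limma adjusted p = 0.0198) and Abhd14a (0.35 ± 0.09, adjusted p = 0.0126). Beside Rpl15 0 of 4, beside Rps3a1 1 of 4 and beside Rpl30 2 of 9 were called. The background of this fit was 8.1%.

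To part single members from what the genes do together, each library's median over the 71 well-measured ribosomal protein genes was subtracted from every gene, and the same fit was run. Of the 80, 4 were then called, 3 higher and 1 lower, where 3.78% of all genes were called (1.78% higher and 2% lower). Rpl34 differed by 1.88, Rpl29 by 0.79, Rpl15 by 0.18 and Rplp0 by -0.82. Rpl15 lost this call in 19 and Rplp0 in 15 of 24 fits with 1 library left out, with limma adjusted p of up to 0.123 and 0.105, both without 3xTg control replicate 1. Rpl3 differed by 1.37 and missed the call (limma adjusted p = 0.0674). In 21 libraries 7 were called, the 5 together with Rpl30 and Rpl21, where 8.15% of all genes were called (3.66% higher and 4.49% lower). Subtracting the same value from every gene of a library moves the difference of every gene by the same amount. The genotypes differed little in these values, so the differences had to lie close to those above.

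On each diet taken alone, no ribosomal protein gene was called between 3xTg and WT in 24 libraries. On the control diet 0.0565% of all genes were called (0.00706% higher, 0.0494% lower), on the ketogenic diet 0.155% (0.0636% higher, 0.0918% lower) and on the MCT diet 0%. The test of edgeR on the recovered reads also called 0 of the 80 on each diet, and DESeq2 called 0, 1 and 0. At an unadjusted p under 0.05 there were 8, 10 and 6 of the 80, beside 14.5%, 14.6% and 7.12% of all genes. The genes with the smallest p on the control diet were Rpl34 (2.03 ± 0.56, limma adjusted p = 0.121), Rpl29 (0.92 ± 0.28), Rpl28 (0.38 ± 0.14), Rpl15 (0.25 ± 0.10) and Rpl3 (1.87 ± 0.78). On the ketogenic diet they were Rpl34 (2.20 ± 0.49, limma adjusted p = 0.0568), Rpl29 (0.77 ± 0.24), Rpl12 (-0.42 ± 0.15), Rplp0 (-0.86 ± 0.36) and Rpl4 (-0.15 ± 0.06), with Rpl3 at 0.66 ± 0.69. On the MCT diet they were Rpl34 (1.44 ± 0.52, limma adjusted p = 0.51), Rpl29 (0.70 ± 0.26), Rpl36 (-0.31 ± 0.12), Rps9 (-0.14 ± 0.06) and Rpl3 (1.62 ± 0.72).

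In 21 libraries the calls appeared on every diet. On the control diet 3 of 80 were called, where 1.74% of all genes were called (0.828% higher, 0.913% lower): Rpl34 (2.39 ± 0.40, limma adjusted p = 0.00185), Rpl29 (1.33 ± 0.19, adjusted p = 0.000291) and Rplp0 (-1.24 ± 0.30, adjusted p = 0.030). On the ketogenic diet the same 3 were called, where 3.62% of all genes were (1.76% higher, 1.85% lower): Rpl34 (2.70 ± 0.33), Rpl29 (0.91 ± 0.16) and Rplp0 (-1.18 ± 0.24). On the MCT diet 4 were called, where 1.77% of all genes were (0.927% higher, 0.842% lower): Rpl34 (1.92 ± 0.36), Rpl29 (0.93 ± 0.17), Rplp0 (-1.09 ± 0.26) and Rpl3 (2.22 ± 0.55, limma adjusted p = 0.0357).

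Over all members, the medians on single diets lay slightly off 0. Each library's median over the 71 genes, on the log2 scale, was 8.96 to 9.07 in 3xTg control, 8.81 to 9.03 in 3xTg ketogenic and 8.89 to 9.03 in 3xTg MCT libraries. It was 8.82 to 8.95 in WT control, 8.89 to 9.08 in WT ketogenic and 8.83 to 9.02 in WT MCT libraries. The 3xTg control libraries lay above all WT control libraries, and every other pair of groups compared here overlapped. On the control diet the median log2 difference between 3xTg and WT was 0.09, with 60 of 80 genes above 0 (75%, beside 48.3% of all genes). On the ketogenic diet it was -0.08 with 17 of 80 above 0, and on the MCT diet -0.05 with 21 of 80. Of all genes, 48.0% and 52.1% lay above 0 on these 2 diets. Large and small subunit genes had like medians: 0.10 and 0.08 on the control diet, -0.09 and -0.07 on the ketogenic diet, and -0.04 and -0.09 on the MCT diet. In 21 libraries the medians were 0.11, -0.10 and -0.05. They rested in part on single libraries: the median was 0.046 on the control diet without 3xTg control replicate 1, -0.019 on the ketogenic diet without 3xTg ketogenic replicate 5 and 0.000261 on the MCT diet without WT MCT replicate 4.

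**Figure D4:**
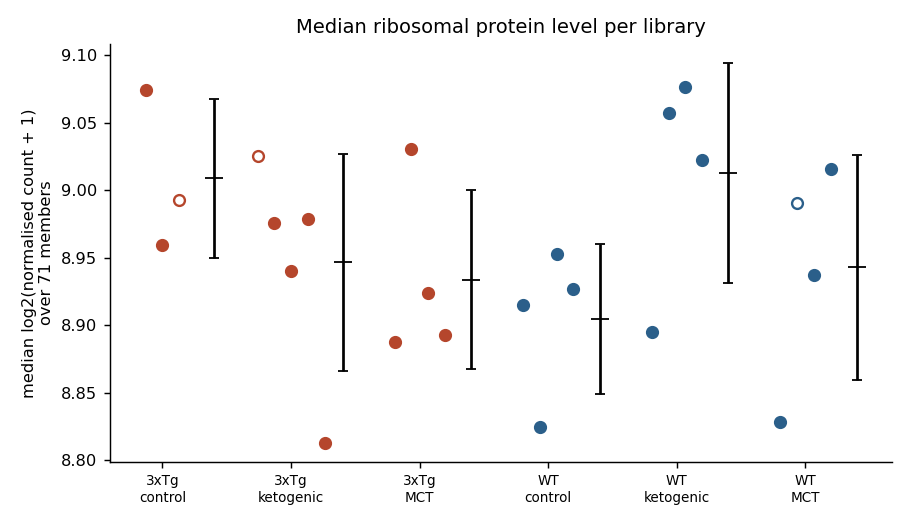
Each point is 1 library's median log2(normalised count + 1) over the 71 ribosomal protein genes with a mean of at least 50, with bars for the group mean and SD (n = 3 to 5) and open circles for the 3 libraries whose Thy1 goes against the label. The whole range of 24 libraries is 8.81 to 9.08, and the groups overlap except 3xTg control and WT control.

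Other measures also parted or nearly parted the control diet groups. The 3xTg control libraries took 5.77% to 6.27% of their normalised reads from mitochondrial genes, and the WT control libraries 5.00% to 5.41%. The summed oligodendrocyte markers (9 of 9 above the floor) were 77045 to 88101 in 3xTg control and 55288 to 73711 in WT control libraries, and the summed excitatory neuron markers (6 of 6) 73138 to 80369 and 79542 to 95908. The astrocyte markers (8 of 8) were 95919.6 to 102029 in 3xTg control and 91676 to 95511 in WT control libraries, and the microglia markers (9 of 9) 5831 to 6411 and 4836 to 5712. The granule cell markers (9 of 9) were 10795 to 11882 and 12493 to 14206, and the endothelial and mural markers (8 of 8) 3647 to 4324.6 and 4325.1 to 4650.1. Of these 6 lists only that of excitatory neurons overlapped between the control groups. The interneuron markers overlapped as well, at 13263 to 13914 in 3xTg control and 11562 to 13366 in WT control libraries. So did the markers of striatum (2167 to 2272 and 2058 to 2340) and choroid plexus (3223 to 3934 and 2918 to 23627). Red blood cell markers, at 367 to 498 and 296 to 427, overlapped too. The libraries include 3xTg control replicate 3, whose Thy1 goes against its label. How many of all genes part the groups was not counted. The part of these measures in the median of the ribosomal protein genes was not tested. The 214 other tested genes with merged exons under 1000 bases had medians on the same side of 0: 0.10 on the control, -0.05 on the ketogenic and -0.04 on the MCT diet. The ribosomal protein genes themselves had a median merged exon length of 1736.5 bases, so most were longer than this class by that measure. Merged exons take in every annotated transcript, and the coding lengths ran from 75 bases (Rpl41) to 1257 (Rpl4). A part of transcript length in these medians was not tested.

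**Figure D5:**
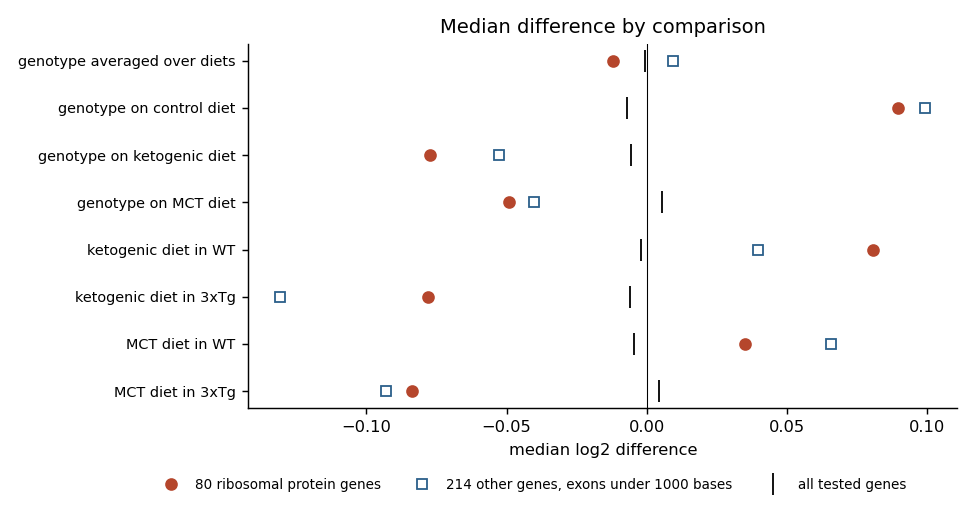
Median log2 difference in 8 comparisons for the 80 ribosomal protein genes (circles), 214 other genes with merged exons under 1000 bases (open squares) and all tested genes (ticks). Circles and squares lie on the same side of 0 in every comparison except the genotype average, where the values are -0.01 and 0.01.

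The second question was what the diets did. No ribosomal protein gene was called for either diet in either genotype, by limma, edgeR or DESeq2. The background was 0% for the ketogenic diet in WT and in 3xTg and for the MCT diet in 3xTg, and 0.00706% for the MCT diet in WT. At an unadjusted p under 0.05 there were 1 of 80 for the ketogenic diet in WT, 7 for the ketogenic diet in 3xTg, 2 for the MCT diet in WT and 5 for the MCT diet in 3xTg, beside 4.62%, 6.69%, 4.79% and 2.67% of all genes. The comparisons within a genotype share its control libraries, and those of a diet with its control share libraries with the genotype comparisons above.

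In WT mice the ketogenic diet went with a median log2 difference of 0.08 (64 of 80 above 0) and the MCT diet with 0.03 (60 of 80). In 3xTg mice the medians were -0.08 (19 of 80 above 0) and -0.08 (15 of 80). Of all genes, 49.0% and 48.0% lay above 0 in WT and 47.9% and 51.7% in 3xTg. Without WT ketogenic replicate 3 the ketogenic median in WT was 0.050, and without WT MCT replicate 4 the MCT median in WT was -0.00139. Without 3xTg ketogenic replicate 5 the ketogenic median in 3xTg was -0.016, and without 3xTg control replicate 1 the MCT median in 3xTg was -0.030. The short genes above had medians of 0.04 and 0.07 in WT and -0.13 and -0.09 in 3xTg. The diet differences between the genotypes had medians of -0.15 for the ketogenic and -0.14 for the MCT diet, each with 11 of 80 above 0. Of all genes, 49.8% and 53.4% lay above 0. The medians were -0.091 without 3xTg ketogenic replicate 5 and -0.076 without 3xTg control replicate 1. No gene of the 80 was called in either of these differences by limma, edgeR or DESeq2, where 0% of all genes were. At an unadjusted p under 0.05 they held 9 and 5 of the 80, beside 6.68% and 2.78% of all genes. In 21 libraries the medians were 0.08 and 0.04 in WT and -0.14 and -0.11 in 3xTg for the ketogenic and the MCT diet, and -0.21 and -0.14 for the differences between genotypes. No ribosomal protein gene was called in any of these 6 comparisons of 21 libraries, where 0.0212% of all genes were called for the MCT diet in WT, 0.0142% for its difference between genotypes and 0% in the other 4. At an unadjusted p under 0.05 limma gave, in 21 libraries, 1 of 80 for the ketogenic and 2 for the MCT diet in WT (beside 4.94% and 3.74% of all genes), 14 and 5 in 3xTg (6.52% and 1.17%), and 18 and 5 for the differences (6.59% and 2.46%). The tests of edgeR and DESeq2 were not run on 21 libraries.

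In WT, the smallest p for the ketogenic diet went with Rpl27a, a large subunit protein at 0.21 ± 0.07 (limma adjusted p = 0.983), ahead of Rps26 (0.12 ± 0.07), Rpl17 (0.14 ± 0.08), Rpl22l1 (0.13 ± 0.07) and Rpl31 (0.18 ± 0.10). Rpl27a averaged 594 ± 52.5 normalised reads in WT control (SD, n = 4) and 684 ± 22.6 in WT ketogenic libraries (n = 4). For the MCT diet in WT it was Rpl28 (0.40 ± 0.13, limma adjusted p = 0.989), ahead of Rpl27a (0.20 ± 0.07), Rplp1 (0.19 ± 0.11), Rpl38 (0.16 ± 0.10) and Rpl29 (0.41 ± 0.26). Rpl28 averaged 77.0 ± 12.8 in WT control and 102 ± 13.4 in WT MCT libraries (SD, n = 4 each). Rpl38 is known from the Tail-short mouse, in which its loss alters the skeleton.

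In 3xTg, the smallest p for the ketogenic diet went with Rpl23a (0.56 ± 0.23, limma adjusted p = 0.724), Rpl37 (-0.38 ± 0.16), Rpl24 (1.04 ± 0.45), Rps21 (-0.21 ± 0.09) and Rps19 (-0.28 ± 0.13), a gene mutated in Diamond-Blackfan anaemia. Rpl24 and Rpl23a are low, with means of 7.86 and 33.2 normalised reads over all libraries. Without the shallow 3xTg ketogenic replicate 2, Rpl23a differed by 0.39. For the MCT diet in 3xTg the smallest p went with Rpl36 (-0.39 ± 0.13, limma adjusted p = 0.999), Rpl9 (-0.22 ± 0.09), Rps7 (-0.22 ± 0.10), Rpl38 (-0.23 ± 0.10) and Rps26 (-0.16 ± 0.07). In the difference of the diet responses between genotypes they were Rps21 (-0.35 ± 0.13), Rpl28 (-0.49 ± 0.19), Rpl17 (-0.29 ± 0.11), Rpl4 (-0.23 ± 0.09) and Rpl7 (-0.22 ± 0.10) for the ketogenic diet, all at a limma adjusted p of 0.724. For the MCT diet they were Rpl28 (-0.55 ± 0.19), Rpl38 (-0.38 ± 0.14), Rpl36 (-0.43 ± 0.18), Rps26 (-0.22 ± 0.10) and Rpl27a (-0.22 ± 0.11), and none was called.

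Rpl34 and Rpl3 had wide errors in every diet comparison, where mice of 1 group fell into different ranges. For the ketogenic diet Rpl34 differed by -0.53 ± 0.52 in WT and -0.37 ± 0.54 in 3xTg, and Rpl3 by 0.64 ± 0.72 and -0.57 ± 0.75. For the MCT diet Rpl34 differed by 0.80 ± 0.52 in WT and 0.21 ± 0.56 in 3xTg, and Rpl3 by 0.37 ± 0.72 and 0.11 ± 0.78. The differences between genotypes in the response to diet were 0.17 ± 0.75 (ketogenic) and -0.59 ± 0.76 (MCT) for Rpl34, and -1.21 ± 1.04 and -0.26 ± 1.06 for Rpl3. None was called, and the sign turned for several of them in 21 libraries or without 1 library, as listed under the dependence on processing.

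Other genes of translation were read from lists beside the members, for the genotype difference averaged over diets, where 8.1% of all genes were called. Fau, which encodes a ribosomal protein fused to a ubiquitin-like protein, differed by -0.09 ± 0.17 and was not called. Of 29 initiation factors 1 was called, Eif3f (-0.12 ± 0.03), with a list median of 0.02. Of 15 tested elongation factors and other genes with a terminal oligopyrimidine tract 3 were called, all lower: Eef1g (-0.13 ± 0.03), Eef2 (-0.12 ± 0.03) and the poly(A)-binding protein Pabpc1 (-0.10 ± 0.03), with a list median of -0.05. Of 48 ribosome biogenesis genes 3 were higher and 1 lower: the small subunit kinase Riok2 (0.23 ± 0.05), Nolc1 (0.15 ± 0.04) and Wdr12 (0.11 ± 0.03), and the RNA polymerase I subunit Polr1b (-0.32 ± 0.08), with a median of 0.01. In 21 libraries 13.2% of all genes were called (6.31% higher and 6.84% lower). The counts there were 1 higher and 1 lower initiation factor, 3 lower elongation and related genes, and 3 higher and 3 lower biogenesis genes.

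Of 23 genes that control ribosomal protein synthesis, 2 were lower, Mycn (-0.42 ± 0.10) and the translation repressor Eif4ebp2 (-0.13 ± 0.04), with a median of -0.02. Of 16 tested genes of ribosome quality control and p53 sensing, Cdkn1a, the p53 target that stops the cell cycle, was higher (0.74 ± 0.18) and Gtpbp1, which lies 387 kb from Rpl3, was lower (-0.13 ± 0.03). Of 58 tested nuclear genes of oxidative phosphorylation, Ndufs1 (0.11 ± 0.03) and Sdhd (0.13 ± 0.04) were higher and Cox7c (-0.61 ± 0.17) was lower, with a median of 0.02. Of 8 tested mitochondrial genes mt-Nd1 was higher (0.20 ± 0.05), and the median was 0.10. In 21 libraries, where 13.2% of all genes were called, 1 growth control gene was lower. Quality control genes had 2 higher and 1 lower. Nuclear genes of oxidative phosphorylation had 1 higher and 1 lower, and 1 mitochondrial gene was higher. On the control diet alone none of these was called in 24 libraries. In 21 libraries 1 quality control gene and 1 biogenesis gene were called there, both higher, where 1.74% of all genes were called. In 24 libraries 52 of 58 nuclear genes of oxidative phosphorylation lay above 0 on the control diet, with a median of 0.12. Beside them, 60 of 80 ribosomal protein genes lay above 0, with a median of 0.09, and 48.3% of all genes did. For the ketogenic diet in 3xTg 3 of the 58 lay above 0 with a median of -0.10, beside 19 of 80 and -0.08. Of all genes, 47.9% lay above 0 there.

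The start of these genes was read from RefSeq (GRCm38.p6), which held 300 bases around the start site for 64 of the 84, not for Rpl3, Rpl29 or Rpl30. The letters TTTCC, a pyrimidine run, were searched on both strands from 15 bases before to 20 after the start, overlaps included. They occurred on the strand of the messenger RNA in 19 of the 64 genes (29.7%), beside 6.15% of all 27025 genes, and on the other strand in 2 (3.13%), beside 5.87%. The starts of 5 genes are shown with 25 bases before and 20 after the start site, since Rpl34, Rplp0 and Rpl15 were called, Rps3a1 had separate ranges and Rpl4 had the highest mean count of the 84; capitals mark the TTTCC run in the searched window.
Rpl34, first start, chr3:130730379-130730423 minus: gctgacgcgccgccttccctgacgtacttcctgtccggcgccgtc
Rpl34, second start, chr3:130730318-130730362 minus: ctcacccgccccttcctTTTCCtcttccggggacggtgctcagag
Rplp0, chr5:115559442-115559486 plus: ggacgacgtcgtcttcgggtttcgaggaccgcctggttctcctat
Rpl15, chr14:18270967-18271011 minus: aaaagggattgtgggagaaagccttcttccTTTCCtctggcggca
Rps3a1, chr3:86142649-86142693 minus: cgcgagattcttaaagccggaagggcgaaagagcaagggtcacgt
Rpl4, chr9:64173362-64173406 plus: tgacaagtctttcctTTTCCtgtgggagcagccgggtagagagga
The run was thus present at 1 of 2 starts of Rpl34, at Rpl15 and at Rpl4, and these letters did not occur in the window of Rplp0 or Rps3a1. A match is a description of the sequence and not a site.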

How the data were processed

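Hippocampal polyA RNA of 24 mice was sequenced (KAPA mRNA libraries, 500 ng RNA, 11 PCR cycles, adapters with molecular identifiers), per the labels. Reads were processed with Trimmomatic and STAR on GRCm38, per the submitters' processing notes. The sources used here do not name the gene counter, the annotation release, the scaling tool or any use of the identifiers. The values the authors deposited are a signal, the reads of each gene scaled by 1 factor per library, as 1 table of normalised counts: 100% came out whole within 0.01 reads, and the 24 factors gave the depth of each library. No column was left out, and 26 date-like gene names were not resolved.

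The members, lists and tests were chosen with earlier results of these data known. Values were taken as log2(value + 1), so fold changes of low genes are understated. Genes with at least 10 in at least 3 libraries were fitted with limma 3.58.1 (R 4.3.3, 1 mean per group, trended prior), with Benjamini-Hochberg adjustment over all tested genes, two-sided, called under 0.05. Unless another error is named, ± is the standard error of the fit. Groups followed the labels, with 3 to 5 mice each. Each p-value sets a difference between group means against 1 spread between samples per gene, pooled over all groups. Groups of unlike spread, as for Rpl34 and Rpl3, share that 1 spread. The libraries were checked for duplicates, and the 2 most alike still differed by more than counting noise (chi-square per degree of freedom 1.56). Named genes were the members called, or the 5 with the smallest p where fewer than 5 were, with Rpl34 and Rpl3 in every comparison; other members were named by the spread within groups. Alternatives were other pseudocounts, filters and scalings, edgeR 4.0.16 and DESeq2 1.42.0 on the recovered reads, a replicate block, and libraries left out. The fits were also run on simulated data, and which fold changes they recovered is not reported here. Coding windows and distances came from GENCODE M21; figures and tables were made with Python 3.11.15, numpy 2.4.6, pandas 2.3.3 and matplotlib 3.10.9. Some items of the background and gene lists are not reported here.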

Additional observations from a re-analysis of the deposited data

Results flagged for a closer look

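In 5 of 40 groups examined, 1 library stood farther from the rest of its group than Dixon's test at 95% allows. Chance gives about 1 in 20 groups for measures picked without sight of the values. Here the 7 genes were picked from these same libraries, some of them for their spread. The groups also share libraries, so their count cannot be set against that rate. The groups came from 8 measures, the 7 genes described above and the median of the ribosomal protein genes, and only groups of 4 or 5 libraries were examined. The library labelled 3xTg ketogenic replicate 1, whose Thy1 goes against its label, gave 3 of the 5. It had 64.6 normalised reads of Rpl34, where the other 3xTg ketogenic libraries had 317 to 411, 48.2 of Rpl3, where they had 477 to 573, and 1217 of Rplp0, where they had 352 to 446. WT control replicate 4 gave the other 2: 202 normalised reads of Rpl34, where the other WT control libraries had 54.2 to 68.6, and 996 of Rps3a1, where they had 472 to 538. Thy1 in WT control replicate 4 was 7713, within the range of libraries labelled WT.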

How the results depend on the processing

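For the genotype difference averaged over diets, 5 ribosomal protein genes were called, and 4 to 7 under the alternatives that keep the whole set of libraries or leave out the 3 against their label. Leaving out 1 library gave 2 to 5: 2 without 3xTg control replicate 1 or 2, and 3 without 3xTg ketogenic replicate 4, 3xTg MCT replicate 1 or 2, or WT MCT replicate 3. Over all genes the count ran from 576 without 3xTg control replicate 1 to 1858 without the 3 libraries, against 1147. Rpl34 and Rpl29 kept their call in every setting. Rpl3 lost it without a filter (adjusted p = 0.0635), with DESeq2 (0.0597) and in 15 of 24 settings with 1 library left out (up to 0.0982), Rpl15 in 11 (up to 0.0975) and Rplp0 in 2 (up to 0.0692). Relative to the ribosomal protein median, 4 genes were called, 2 without a filter, 7 without the 3 libraries and 2 to 5 with 1 library left out. There Rplp0 lost its call without a filter (0.0583), and Rpl15 without a filter (0.063), with quantile normalisation (0.0649), edgeR (0.0506) and the replicate block (0.081).

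On single diets, where 0 were called, leaving out the 3 libraries gave 3 on the control, 3 on the ketogenic and 4 on the MCT diet, DESeq2 gave 1 on the ketogenic diet, and leaving out 1 library gave 0 to 1, 0 to 2 and 0. No alternative called a member for a diet or a difference between diet responses. The cause of these changes was not tested.

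Without WT MCT replicate 4 the median over the members turned for the genotype difference on the MCT diet (0.000261) and for the MCT diet in WT (-0.00139). Among named genes, signs turned in diet comparisons of Rpl34 and Rpl3, none of them called. Without the 3 libraries the MCT diet differed by -0.23 for Rpl3 in WT, by -0.15 for Rpl34 and -0.15 for Rpl3 in 3xTg, and its response between genotypes by 0.078 for Rpl3. With 1 library left out, the ketogenic diet in 3xTg ran from -0.72 to 0.13 for Rpl34 and -0.83 to 0.11 for Rpl3, turning without 3xTg ketogenic replicate 1. The MCT diet ran from -0.23 to 0.85 for Rpl3 in WT (turning without WT MCT replicate 2 or WT control replicate 2), and in 3xTg from -0.15 to 0.47 for Rpl34 and -0.15 to 0.28 for Rpl3 (without 3xTg control replicate 3). The difference of responses ran from -0.27 to 0.66 for Rpl34 (ketogenic; turning without WT control replicate 4 or 3xTg control replicate 3) and from -0.74 to 0.34 for Rpl3 (MCT; without WT control replicate 1 or 2 or WT MCT replicate 2).

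With the replicate number as a block, 4 were called and Rpl3 was not (limma adjusted p = 0.0616). Over 55 pairs with the same number the deviations correlated at a median of 0.02 (-0.34 to 0.36), and 14 pairs were over 0.1. The median over pairs with other numbers was -0.000657. These medians do not settle whether the numbers pair some of the mice. Depth limits 3xTg ketogenic replicate 2 most, where 1 read is worth 5.40 normalised reads.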
